A study of Mus musculus with 10 samples.

Results

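The genes described here are 10 heat shock chaperones and co-chaperones, chosen by name: the HSP70 genes Hspa1a, Hspa1b and Hspa8, the HSP90 gene Hsp90aa1, the co-chaperones Dnajb1, Hsph1 and Bag3, the small heat shock protein gene Hspb1, and the chaperonin genes Hspd1 and Hspe1. They are 10 of the 25239 gene symbols in the count table, and all 10 were among the 15416 symbols with enough counts to be tested. The products of 8 of them work in the cytosol and nucleus. Hspd1 and Hspe1 encode the mitochondrial chaperonin and its lid, so they are described apart from the cytosolic genes.

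RNA was sequenced from cells sorted by flow cytometry from mice at postnatal day 7, taken from the seams of connective tissue that join the skull bones (calvarial sutures). Both sorted populations are called calvarial stem cells in the labels: 5 libraries are labelled DDR2-plus, for cells positive for the collagen receptor DDR2, and 5 are labelled PSC, a name the labels do not spell out. The genotype label of every library is wild type, while the protocol names Ctsk-Cre mice, which carry the Cre recombinase under the promoter of the protease gene Ctsk, so both groups share that background. No agent or treatment is named in either group. Each sample title holds a library number after the prefix Sut, and the same 5 numbers are found in both groups. The labels do not say what the number marks, and the main fit does not pair the libraries by it. The protocol mentions 5 animals without tying them to libraries, so all p-values measure the spread between libraries, which may be technical. Each group rests on 5 libraries.

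Heat shock proteins hold unfolded or partly folded proteins and help them fold again. HSP70 proteins bind a client in a cycle driven by ATP; J-domain proteins such as DNAJB1 start that cycle, HSP110 and BAG proteins end it by exchanging the nucleotide, and HSP90 takes over clients such as kinases and steroid receptors. Some of these genes are expressed at all times, and others are induced by heat and by other stress through the transcription factor HSF1, which binds inverted repeats of the letters GAA upstream of its targets. Osteoblasts and chondrocytes secrete large amounts of matrix protein, whose folding in the endoplasmic reticulum uses a separate set of chaperones.

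The promoter sequences of the members are shown for the letters of that repeat. Promoter windows from RefSeq on GRCm38.p6, each running from 250 bases before to 50 bases after an annotated start, were matched for 8 of the 10 members, in 11 windows. The inverted pair GAANNTTC, whose letters read alike on both strands, was found in 8 of the 11 windows, which belong to 7 members, and in 7.86% of all 32851 windows of the table. A run of 3 alternating units of GAA and TTC, with NN between neighbours, searched on both strands and holding the pair within it, was found in the windows of 3 members, Hsph1, Hspd1 and Hspe1, and in 0.603% of all windows. Capitals mark the matched units in the stretches below, each written 5′ to 3′ on the strand of its gene. The Hspa1a and Hspa1b windows differ at 4 of 300 positions, and the stretch around the repeat is the same in both. Its copies lie at chr17:34972233-34972280 for Hspa1a and at chr17:34959315-34959362 for Hspa1b, both on the minus strand, with the match at positions -104 to -97 from the start.
Hspa1a and Hspa1b: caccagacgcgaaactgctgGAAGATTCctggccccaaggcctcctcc
The Hspb1 stretch, at chr5:135887782-135887849 on the plus strand, holds 2 separate pairs.
Hspb1: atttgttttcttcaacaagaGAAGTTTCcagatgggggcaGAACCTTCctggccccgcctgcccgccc
Hspd1 and Hspe1 lie head to head, and the same bases at chr1:55088039-55088096 lie in the windows of both, read on the minus strand for Hspd1 and on the plus strand for Hspe1.
Hspd1: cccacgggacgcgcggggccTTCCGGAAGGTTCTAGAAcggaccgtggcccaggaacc
Hspe1: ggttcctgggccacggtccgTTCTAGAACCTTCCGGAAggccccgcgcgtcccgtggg
In Hsph1 (chr5:149636280-149636308, minus strand) and Bag3 (chr7:128523617-128523632, plus strand) the match lies past the annotated start.
Hsph1: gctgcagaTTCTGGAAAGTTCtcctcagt
Bag3: tgggaccaGAAGTTTC
Neither Dnajb1 window holds these letters, which says only that the letters are not in these windows. Its stretch is shown because Dnajb1 has the largest fold change of the members; it lies at chr8:83608004-83608174 on the plus strand, and its capitals mark CCAAT on the opposite strand, a motif found in 37.4% of all windows.
Dnajb1: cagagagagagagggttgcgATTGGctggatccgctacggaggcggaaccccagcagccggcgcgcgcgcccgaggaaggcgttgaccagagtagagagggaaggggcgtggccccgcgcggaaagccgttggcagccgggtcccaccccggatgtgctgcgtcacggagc

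The libraries held 49843470 to 62021992 counts in DDR2-plus and 43419129 to 58270419 in PSC, and the deposited values were raw counts per gene. Levels are normalised read counts (CPM, counts relative to a library size scaled by the trimmed mean of M-values, TMM), and 1 count was worth 0.0146 to 0.0249 CPM over the 10 libraries. Col1a1 and Col1a2, the genes of type I collagen, took 4.56 to 8.24% of the counts in DDR2-plus and 21.5 to 23.7% in PSC. Between the groups 39.1% of the tested genes passed edgeR's quasi-likelihood test at an adjusted p under 0.05, 20.1% as higher and 19.0% as lower in DDR2-plus. With library size alone in place of TMM, 5421 genes passed as higher and 1538 as lower, against 3096 and 2926 with TMM. That change of scaling moved the median over all genes to 0.31 on the log2 scale, against 0.04 with TMM. The chondrocyte markers passed as higher in 10 of 10 genes, with a summed level of 93734 to 130576 CPM in DDR2-plus and 12572 to 29195 in PSC. Osteoblast markers passed as lower in 7 of 9 genes, at 29529 to 52447 CPM in DDR2-plus and 160560 to 182271 in PSC. Markers of Schwann cells and glia (8 of 9 higher) summed to 439 to 950 CPM in DDR2-plus and 40.7 to 96.2 in PSC. Markers of pineal and photoreceptor cells (5 of 6 tested genes higher) summed to 145 to 237 CPM in DDR2-plus and 4.37 to 7.83 in PSC, where Aanat and Gngt1 had 0 counts. Most of the PSC sum is Asmt, the exception, at 4.32 to 7.52 CPM in PSC and 2.36 to 4.91 in DDR2-plus. Asmt did not pass (log2 -0.65). Tendon markers passed as lower in 5 of 6 genes, and their summed level was 3213 to 4158 CPM in DDR2-plus and 4839 to 5698 in PSC. Much of that sum is Fmod, the exception, at 3021 to 3914 CPM in DDR2-plus and 2072 to 2959 in PSC. Fmod passed as higher (log2 0.50), so the sum understates the fall of the other genes. Among these Tnmd, of mature tendon, averaged 75.9 CPM in the DDR2-plus libraries and 1451 CPM in the PSC libraries. Neuron markers passed as higher in 6 of 8 genes and summed to 62 to 176 CPM in DDR2-plus and 30.9 to 47.1 in PSC, where Slc17a6 had 0 counts. Macrophage and leukocyte markers (1 of 4 tested genes higher) summed to 12.5 to 25 CPM in DDR2-plus and 6.74 to 18.2 in PSC. Endothelial markers summed to 21.6 to 40.2 CPM in DDR2-plus and 17.9 to 40.4 in PSC, which hides opposite calls. Pecam1 (log2 4.31) and Kdr (2.37) passed as higher, Cdh5 (-1.39) and Tek (-0.62) as lower, and Emcn did not pass. Pericyte and smooth muscle markers summed to 223 to 324 CPM in DDR2-plus and 257 to 290 in PSC. Of these 8 genes 2 passed as higher and 4 as lower. Osteoclast markers (1 of 2 tested genes higher, 1 lower) summed to 552 to 859 CPM in DDR2-plus and 146 to 386 in PSC, mostly Mmp9. Of the tested skeletal muscle markers 1 of 4 was higher, and of the erythroid markers 1 of 3. The sort gene Ddr2 averaged 112 CPM in the DDR2-plus libraries and 152 CPM in the PSC libraries and passed as lower, and Ctsk averaged 107 CPM in the DDR2-plus libraries and 294 CPM in the PSC libraries and passed as lower too. The number of genes with 10 or more counts was 15739 to 16191 in DDR2-plus and 14393 to 14817 in PSC, and the ribosomal RNA precursor Rn45s stood at 3008 to 5009 CPM in DDR2-plus and 5969 to 8164 in PSC. The part of these differences between the groups in the results below was not tested, and in bulk libraries fewer cells of a type and less RNA per cell cannot be told apart.

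Of the 10 members, 5 rose in DDR2-plus over PSC, none passed as lower and 5 did not pass. The 5 that rose were Dnajb1, Hspb1, Hsp90aa1, Hspa8 and Bag3, and in each every DDR2-plus library stood above every PSC library, which was so in 15.6% of all tested genes. No member passed as lower at an unadjusted p under 0.05 either, and DESeq2 and limma-voom called 0 as lower. The median log2 fold change of the members was 0.30, against 0.04 over all tested genes, and the members ranged from -0.52 to 2.19. Dnajb1 was the only member with a log2 fold change above 1, and 871st among the tested genes in order of fold change. The inducible HSP70 genes Hspa1a and Hspa1b had negative fold changes that did not pass in the fit without covariates on all libraries and passed there without 1 PSC library. With the library numbers fitted as a block, Hspa1b passed as lower.

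**Figure D1:**
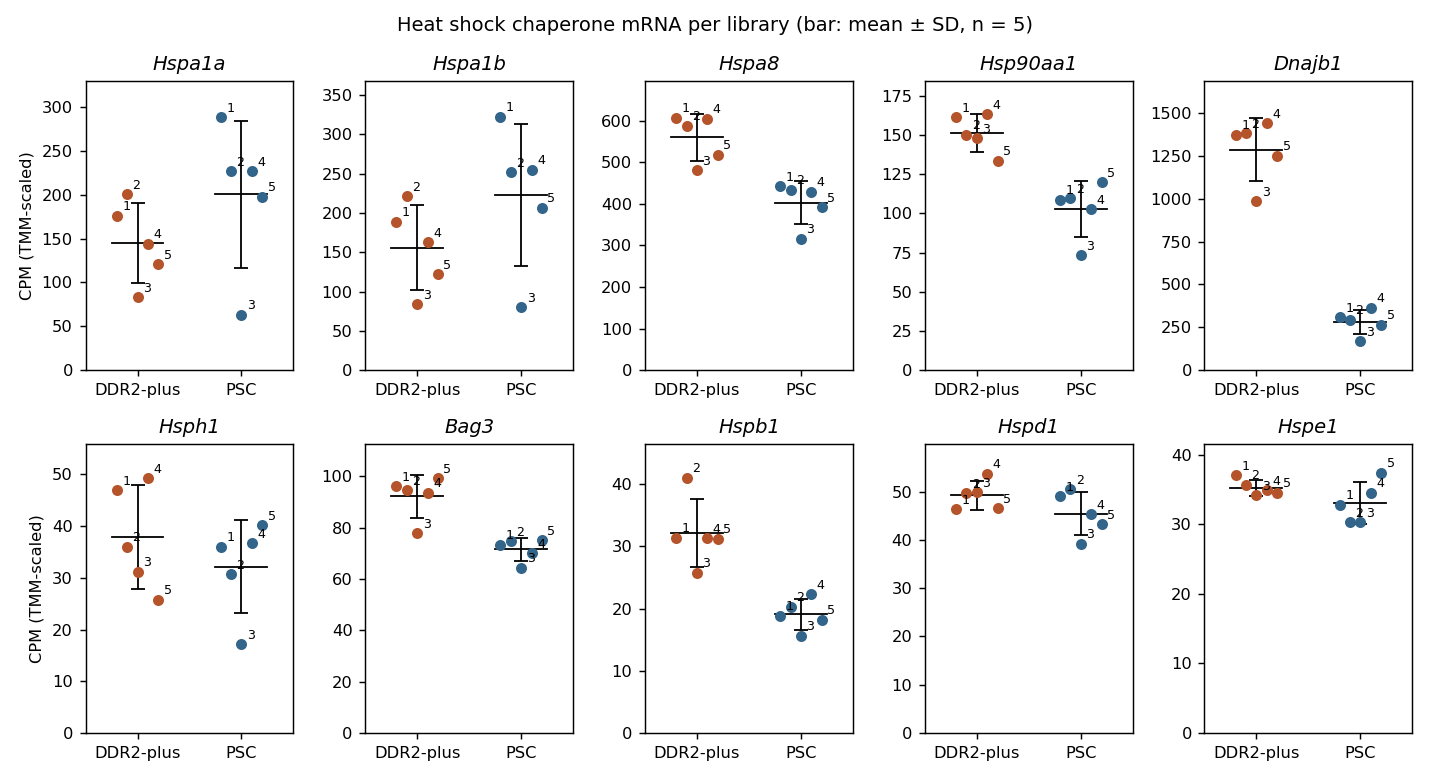
Level of each heat shock chaperone gene in TMM-scaled CPM (vertical axis, from 0) in the DDR2-plus and PSC libraries; points are libraries with their numbers, and bars are the mean ± SD of 5 libraries. In Dnajb1, Hspa8, Hsp90aa1, Bag3 and Hspb1 the groups do not overlap, and library 3 of PSC is the lowest PSC point in every panel.

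Dnajb1 (chr8:83608193-83612653, plus strand, mm10) encodes the J-domain protein that delivers clients to HSP70 and starts its ATPase. The DDR2-plus libraries had 1373, 1382, 984, 1438 and 1250 CPM, against 310, 295, 170, 364 and 266 CPM in the PSC libraries. The lowest DDR2-plus library was above the highest PSC library. Dnajb1 averaged 1285 ± 182 CPM in DDR2-plus, against 281 ± 71.7 CPM in PSC (SD, n = 5 each), which was 4.57-fold higher (log2 fold change 2.19, SE 0.18, edgeR adjusted p = 1.6e-06). Its log2 fold change lay between 2.05 and 2.46 in every other setting tried. Only 0.412% of the 50-base windows of its transcripts are shared with other genes.

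The constitutive HSP70 gene Hspa8 (chr9:40800984-40810087, plus strand) encodes HSC70, which folds new proteins and uncoats clathrin vesicles. It had 607, 588, 481, 604 and 518 CPM in the DDR2-plus libraries, against 442, 434, 316, 429 and 392 CPM in the PSC libraries. The groups were separate, with library 3 the lowest of each. Hspa8 averaged 560 ± 57.0 CPM in DDR2-plus, against 402 ± 52.2 CPM in PSC, or 1.39-fold higher (log2 0.48, SE 0.10, edgeR adjusted p = 0.00248). Other gene models, processed pseudogenes among them, share 39.4% of its 50-base windows, so part of its reads could have been assigned elsewhere or left out.

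Unlike Hspa8, the stress-inducible HSP70 genes did not pass as higher. Hspa1a (chr17:34969190-34972156) and Hspa1b (chr17:34956436-34959238), both on the minus strand, encode nearly the same protein, the HSP70 that heat shock induces most. Hspa1a had 176, 200.5, 83.2, 144 and 121 CPM in the DDR2-plus libraries, against 288, 227, 63.4, 226 and 198 CPM in the PSC libraries. Hspa1b had 189, 221, 83.9, 163 and 122 CPM in the DDR2-plus libraries, against 322, 251, 79.9, 255 and 207 CPM in the PSC libraries. In both genes 3 PSC libraries were above every DDR2-plus library, and PSC library 3 was the lowest of all 10 libraries. Hspa1a averaged 145 ± 45.9 CPM in DDR2-plus, against 200.5 ± 83.5 CPM in PSC (log2 -0.47, SE 0.33, edgeR adjusted p = 0.285). Hspa1b averaged 156 ± 54.2 CPM in DDR2-plus, against 223 ± 90.0 CPM in PSC (log2 -0.52, SE 0.32, edgeR adjusted p = 0.228). Neither difference passed with all libraries in this fit, which has no covariates. With the library numbers fitted as a block, Hspa1b passed as lower and Hspa1a did not. Without PSC library 3 both genes passed as lower, Hspa1a with a log2 fold change of -0.70 (edgeR adjusted p = 0.0237) and Hspa1b with -0.73 (edgeR adjusted p = 0.0298). Leaving out any other single library left both above the threshold.

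The 2 copies share 66.3% of the Hspa1a and 62.3% of the Hspa1b windows of 50 bases, mostly with each other, so a division of reads between them is uncertain. In addition, 19% of the Hspa1a exon bases overlap the gene model Gm20481, and the library kit does not mark strand. The Hspa1a share of the pair was 47.0 to 49.8% in DDR2-plus and 44.2 to 48.9% in PSC, so the ranges overlapped. Counted as 1 gene, the pair had 301 ± 99.9 CPM in DDR2-plus, against 423 ± 173 CPM in PSC (log2 -0.49, SE 0.32, edgeR adjusted p = 0.253). The PSC mean of the sum was 494 ± 85.7 CPM without library 3. With the library numbers fitted as a block, the pair passed as lower (log2 -0.42, edgeR adjusted p = 0.0455).

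**Figure D2:**
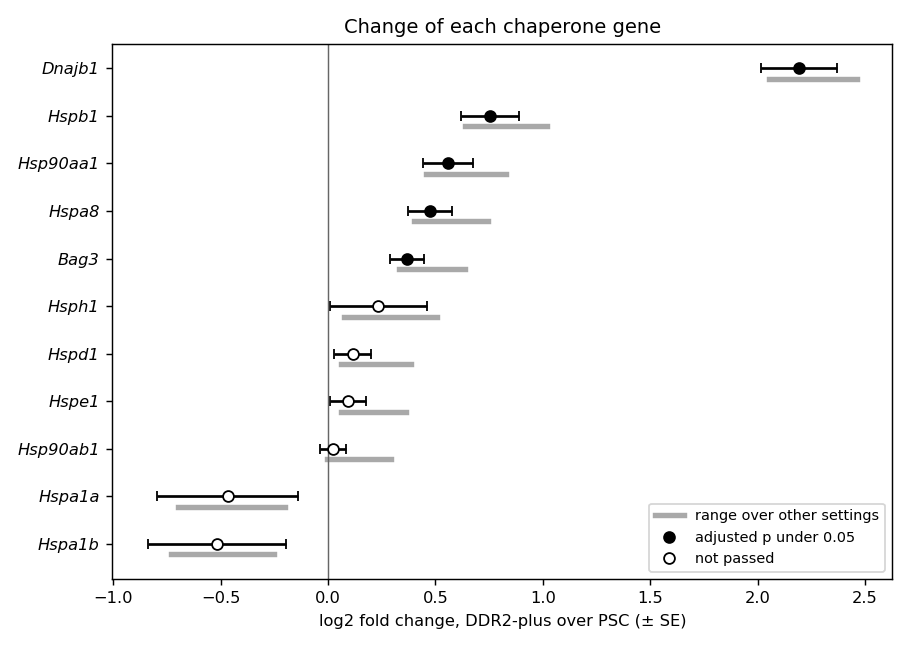
Log2 fold change of each member and of Hsp90ab1, DDR2-plus over PSC (horizontal axis), with its SE; filled points passed edgeR's test, and grey bars span the values under the other settings. Dnajb1 stands at 2.19, Hspb1 at 0.75, Hsp90aa1 at 0.56, Hspa8 at 0.48 and Bag3 at 0.37, while the bars of Hspa1a and Hspa1b lie below 0 in all settings.

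Hsp90aa1 (chr12:110690605-110702728, minus strand) encodes the inducible cytosolic HSP90. Its levels were 162, 150.2, 148, 163 and 134 CPM in the DDR2-plus libraries, against 109, 109.6, 73.3, 103 and 119.8 CPM in the PSC libraries. The lowest DDR2-plus library, library 5, was above the highest PSC library, also library 5. Hsp90aa1 averaged 151 ± 11.9 CPM in DDR2-plus, against 103 ± 17.6 CPM in PSC, or 1.47-fold higher (log2 0.56, SE 0.12, edgeR adjusted p = 0.0020). Pseudogene copies share 47.5% of its windows. Its constitutive partner Hsp90ab1, which is no member, averaged 626 ± 25.1 CPM in DDR2-plus, against 616 ± 36.8 CPM in PSC (log2 0.02, SE 0.06, edgeR adjusted p = 0.803). With library size alone Hsp90ab1 passed as higher, at 0.29.

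Hspb1 (chr5:135887919-135889563, plus strand) encodes HSP27 (HSP25 in the mouse), a small heat shock protein that holds unfolding proteins without ATP and binds actin filaments. It had 31.4, 41.0, 25.7, 31.3 and 31.3 CPM in the DDR2-plus libraries, against 18.9, 20.3, 15.6, 22.3 and 18.2 CPM in the PSC libraries. The groups did not overlap. Hspb1 averaged 32.1 ± 5.52 CPM in DDR2-plus, against 19.1 ± 2.47 CPM in PSC, or 1.69-fold higher (log2 0.75, SE 0.13, edgeR adjusted p = 0.000691). A pseudogene and a further locus share 50.1% of its windows.

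Bag3 (chr7:128523616-128546981, plus strand) encodes the BAG protein that joins HSP70 to small heat shock proteins and directs damaged clients to autophagy. The DDR2-plus libraries had 96.1, 94.5, 77.8, 93.5 and 99.3 CPM, against 73.4, 74.7, 64.4, 70.0 and 75.0 CPM in the PSC libraries. The groups did not overlap, and DDR2-plus library 3 was the one nearest to the PSC libraries. Bag3 averaged 92.3 ± 8.35 CPM in DDR2-plus, against 71.5 ± 4.45 CPM in PSC, or 1.29-fold higher (log2 0.37, SE 0.08, edgeR adjusted p = 0.00263). None of its windows is shared with another gene.

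Hsph1 (chr5:149614287-149636376, minus strand) encodes HSP110, the nucleotide exchange factor of HSP70 in protein disaggregation. It had 46.9, 36.0, 31.2, 49.3 and 25.8 CPM in the DDR2-plus libraries, against 36.0, 30.8, 17.1, 36.7 and 40.2 CPM in the PSC libraries. The groups overlapped over most of their range, and the difference did not pass (log2 0.23, SE 0.23, edgeR adjusted p = 0.448).

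The mitochondrial chaperonin genes have neighbouring starts. Hspd1 (chr1:55077835-55088243, minus strand), which encodes the HSP60 barrel, had 46.4, 49.7, 49.9, 53.8 and 46.6 CPM in the DDR2-plus libraries, against 49.1, 50.5, 39.2, 45.4 and 43.3 CPM in the PSC libraries (log2 0.12, SE 0.09, edgeR adjusted p = 0.319). Hspe1 (chr1:55088132-55091307, plus strand), which encodes the HSP10 lid, had 37.0, 35.7, 34.1, 34.9 and 34.5 CPM in the DDR2-plus libraries, against 32.8, 30.3, 30.2, 34.5 and 37.4 CPM in the PSC libraries (log2 0.09, SE 0.08, edgeR adjusted p = 0.416). In both genes the groups overlapped. Both passed as higher with library size alone, at log2 0.39 for Hspd1 (edgeR adjusted p = 0.00317) and 0.36 for Hspe1 (edgeR adjusted p = 0.00491). Other genes share 42.1% of the Hspd1 and 22.8% of the Hspe1 windows; these are pseudogenes and, in part, Hspd1 and Hspe1 with each other.

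Per kilobase of exon, Dnajb1 was the highest of the members and Hsp90ab1 together in DDR2-plus, at 401 CPM per kilobase, followed by Hsp90ab1 at 209 and Hspa8 at 130. The ranges of these genes did not overlap in DDR2-plus. In PSC the order was Hsp90ab1 at 205 CPM per kilobase, Hspa8 at 93.6 and Dnajb1 at 87.8, and the ranges of Hspa8, Dnajb1, Hspa1b (79.6) and Hspa1a (67.6) overlapped from each gene to the next. In DDR2-plus Hspa1b and Hspa1a stood at 55.6 and 48.9 CPM per kilobase, with Hsp90aa1 (38.5), Bag3 (36.0) and Hspb1 (31.2) after them, each overlapping the next. Hsph1 was the lowest in both groups, at 5.21 CPM per kilobase in DDR2-plus and 4.43 in PSC, and its range touched no other gene. These levels use the whole exon length of the gene model, so they understate a gene whose transcripts use part of it. The order also depends on how reads from shared sequence were counted, since the share of shared windows was 0.412% in Dnajb1 and 3.44% in Hsp90ab1, but 39.4% in Hspa8, 47.5% in Hsp90aa1, 62.3% in Hspa1b and 66.3% in Hspa1a.

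Ratios within a library do not depend on the scaling between libraries. The ratio of the inducible pair, Hspa1a plus Hspa1b, to Hspa8 was 0.60, 0.718, 0.348, 0.508 and 0.470 in the DDR2-plus libraries, against 1.38, 1.10, 0.454, 1.12 and 1.03 in the PSC libraries. PSC library 3 lay inside the DDR2-plus range and the other PSC libraries lay above it. The mean log2 ratio was -0.96 ± 0.39 in DDR2-plus and -0.06 ± 0.62 in PSC (SD, n = 5 each), a difference of -0.90 with p = 0.0397 in a two-sided exact permutation test, which became 0.0595 after adjustment over the 3 ratios tested and so failed the threshold. Without PSC library 3 the difference was -1.17 with an exact p of 0.0159, and without any other single library the exact p was 0.0635 or 0.0794. The smallest p that 5 libraries against 5 can give is 0.00794.

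The ratio of Hsp90aa1 to Hsp90ab1, the inducible to the constitutive HSP90, was 0.243, 0.251, 0.236, 0.260 and 0.218 in the DDR2-plus libraries, against 0.171, 0.178, 0.128, 0.174 and 0.180 in the PSC libraries. The ranges did not overlap. The mean log2 ratio was -2.05 ± 0.10 in DDR2-plus and -2.60 ± 0.20 in PSC, a difference of 0.55 (two-sided exact permutation p = 0.00794, adjusted 0.0238). The Hspd1 to Hspe1 ratio ranged over 1.25 to 1.54 in DDR2-plus and 1.16 to 1.67 in PSC, and its difference of 0.02 did not pass (exact permutation p = 0.841, adjusted 0.841). Chosen after its values were seen, and so given as a description, the ratio of Dnajb1 to the inducible pair had a median of 4.69 in DDR2-plus, with a range of 3.27 to 5.89, and a median of 0.659 in PSC, with a range of 0.508 to 1.19. Likewise, the ratio of Dnajb1 to Hspa8 was 2.05 to 2.41 in DDR2-plus and 0.539 to 0.85 in PSC.

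**Figure D3:**
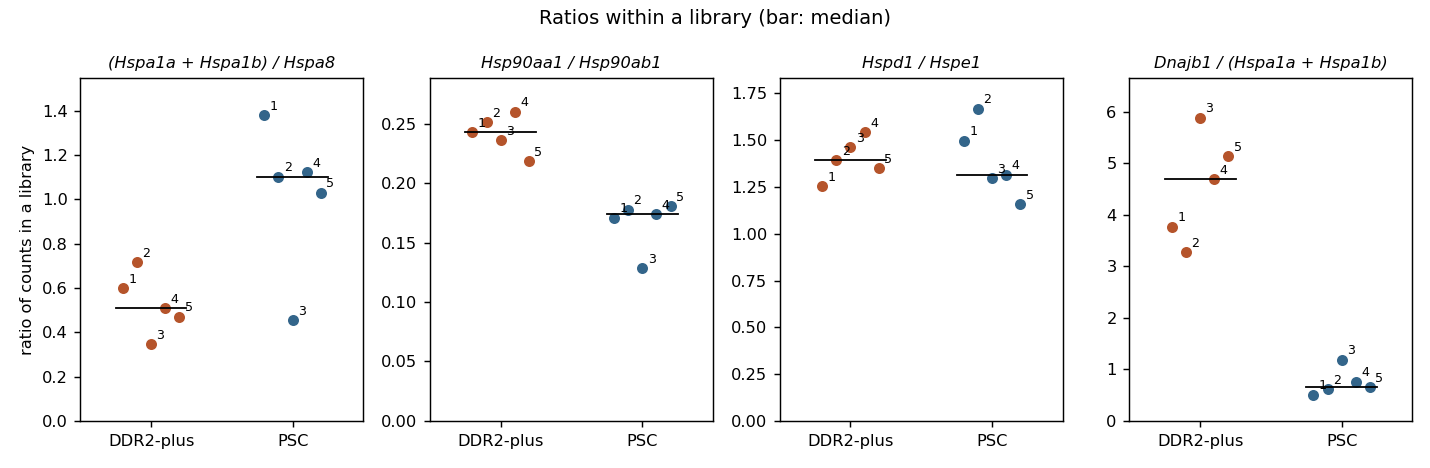
Ratio of the counts of chaperone genes within each library (vertical axis, no unit, from 0); points are libraries with their numbers and bars are medians of 5. PSC library 3 falls among the DDR2-plus points for the inducible HSP70 pair over Hspa8, while the Hsp90aa1 to Hsp90ab1 ratios of the groups are apart.

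Library 3 stood low for these genes in both groups. PSC library 3 was the lowest PSC library in 10 of 10 members, against 18.8% of the 8876 tested genes at a mean of 10 CPM or more. DDR2-plus library 3 was the lowest of its group in 7 of 10 members, all but Hsp90aa1, Hsph1 and Hspd1, against 27.6% of those genes. In PSC library 3 Hspa1a reached 27.0% of the mean of the other PSC libraries, Hspa1b 30.9%, Hsph1 47.7% and Dnajb1 55.0%. Hsp90aa1 stood there at 66.5%, Hspa8 at 74.4%, Hspb1 at 78.5%, Hspd1 at 83.3%, Bag3 at 87.8% and Hspe1 at 89.6%, while the median over all those genes was 99.3%. In DDR2-plus library 3 Hspb1 was at 76.3% of the mean of the other libraries, Dnajb1 at 72.3%, Hspa1a at 51.9% and Hspa1b at 48.3%. The spread within a group was thus widest in the inducible HSP70 genes and in Hsph1, and narrow in the mitochondrial genes and in Bag3.

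The early response genes, transcription factors and feedback inhibitors that many stimuli induce within minutes, showed the same library as low. PSC library 3 was the lowest PSC library in 24 of 24 of them, and DDR2-plus library 3 the lowest of its group in 20 of 24. Library 3 also differed in cell type markers. All chondrocyte markers were lowest in DDR2-plus library 3, and all but Hapln1 in PSC library 3. There Col2a1 stood at 7414 CPM, against 12446 to 19190 CPM in the other PSC libraries. Osteoblast markers other than Dmp1 were highest in DDR2-plus library 3, while in PSC their highest library varied. The part of these differences in the member values was not tested. Other lists varied. Among 15 endoplasmic reticulum chaperones library 3 was the lowest in 6 in PSC and in 9 in DDR2-plus. Among 18 genes for HSP90 and its co-chaperones it was the lowest in 8 in PSC and in 2 in DDR2-plus. At the far end, it was the lowest in none of the 9 TRiC chaperonin genes in either group. With library 3 left out of both groups, an alternative chosen after seeing the data, 5 members rose and 2 fell, Hspa1a at log2 -0.55 (edgeR adjusted p = 0.0220) and Hspa1b at -0.57 (edgeR adjusted p = 0.0297).

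**Figure D4:**
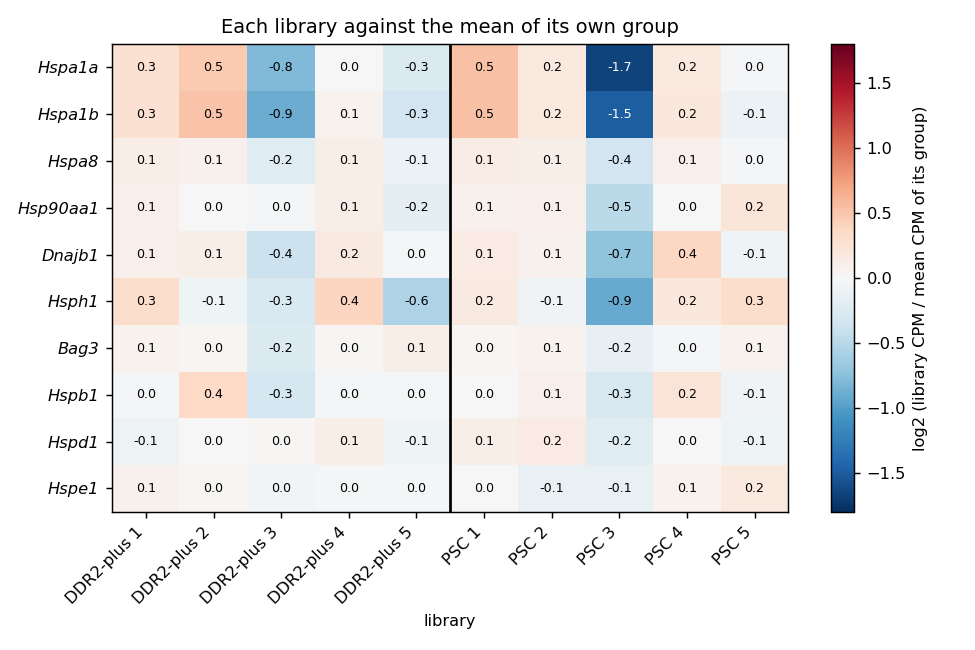
Deviation of each library (columns) from the mean of its own group, as the log2 of the library's CPM over the group's mean CPM, for each member (rows). Blue cells are below the group mean; PSC library 3 is the darkest column, and DDR2-plus library 3 is below its group mean most clearly in Hspa1a and Hspa1b.

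The other genes of the heat shock system were read from lists chosen for the pathway, and their counts stand beside 20.1% higher and 19.0% lower over all genes. Among the HSF transcription factors and their regulators 1 of 7 tested genes rose and 1 fell. The one that rose was Ier5, an early response gene whose product promotes HSF1 activity, with 244 ± 32.0 CPM in DDR2-plus, against 112 ± 24.1 CPM in PSC (log2 1.13, SE 0.15, edgeR adjusted p = 7.2e-05). Hsbp1, which encodes a small protein that binds HSF1, fell (log2 -0.27), and its log2 fold change was 0.00 with library size alone. Hsf1 itself averaged 22.9 ± 2.85 CPM in DDR2-plus, against 26.5 ± 4.28 CPM in PSC (log2 -0.21, edgeR adjusted p = 0.228). Hsf2 averaged 3.22 ± 1.20 CPM in DDR2-plus, against 3.75 ± 1.30 CPM in PSC (log2 -0.22, edgeR adjusted p = 0.655).

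Among 17 other J-domain co-chaperones 6 rose and 1 fell, with a median log2 fold change of 0.30. Dnajb2, which delivers clients to the proteasome, rose to 42.1 ± 4.0 CPM in DDR2-plus, against 21.0 ± 2.86 CPM in PSC (log2 1.00). Dnaja4, an HSP40 of the cytosol, also rose (log2 1.00), though 44.1% of its exon bases overlap another gene. Dnajc9, a co-chaperone of histones, rose (log2 0.75), and Dnajc21, which acts in ribosome assembly, fell (log2 -0.76). Dnajc21 no longer passed with library size alone or with library 3 left out of both groups.

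Of 18 genes for HSP90 and its co-chaperones, 5 rose and 1 fell. Stip1, whose product links HSP70 to HSP90, had 74.3 ± 11.1 CPM in DDR2-plus, against 54.9 ± 5.46 CPM in PSC (log2 0.44, SE 0.11, edgeR adjusted p = 0.00696). Cdc37l1, related to the kinase co-chaperone CDC37, rose (log2 0.61), and Pih1d1, a subunit of the R2TP complex, fell (log2 -0.80). Cacybp (0.29) rose too, as did Unc45a (0.28) and Ptges3 (0.26), which were named after their values were seen. Cacybp lost its call without DDR2-plus library 1 or 4 or without PSC library 1, 2 or 3. Ptges3 lost it without any of DDR2-plus libraries 1 to 4 or PSC libraries 1, 2 and 5, and Unc45a without any library but PSC 4 and 5. With 1 library left out, 2 to 5 genes of the list rose.

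Among 8 other HSP70 and HSP110 genes 1 rose and 2 fell. Hspa2, the testis-enriched HSP70, rose (log2 0.38), while Hspa13, of the endoplasmic reticulum (-0.48), and Hspa12b, an HSP70 relative of endothelial cells (-1.17), fell. Hspa13 did not pass with library size alone. In the list of the BAG family and other HSP70 regulators 0 of 10 rose and 3 fell by edgeR; 1 was higher at an unadjusted p under 0.05, and DESeq2 and limma-voom called 0 as higher. The 3 were Bag5 (log2 -0.84), with 41.1 ± 5.21 CPM in DDR2-plus, against 73.6 ± 5.77 CPM in PSC, Stub1 (-0.33), the HSP70 ubiquitin ligase CHIP, and Bag1 (-0.25). Bag3, with a log2 fold change of 0.37, thus went the other way from Bag5 and Bag1. Stub1, which shares 42.3% of its exon bases with another gene, and Bag1 lost their call with library size alone, where Bag1 was at 0.02, and Bag1 also without DDR2-plus library 4 (-0.22).

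Of 6 other small heat shock protein genes 1 rose and 3 fell. Hspb6, an HSP20 of muscle and other tissue, rose to 24.2 ± 4.96 CPM in DDR2-plus, against 9.81 ± 1.67 CPM in PSC (log2 1.30, SE 0.17, edgeR adjusted p = 5.95e-05). Hspb7, best known from heart muscle, fell to 3.95 ± 2.07 CPM in DDR2-plus, against 20.6 ± 11.5 CPM in PSC (log2 -2.38, SE 0.42, edgeR adjusted p = 0.000676). Cryab, the αB-crystallin gene, fell to 42.7 ± 11.1 CPM in DDR2-plus, against 74.5 ± 12.4 CPM in PSC (log2 -0.80). Hspb2, its neighbour and named after its values were seen, fell as well (log2 -1.63), and 17% of the Cryab and 30.2% of the Hspb2 exon bases are shared with other genes. Hspb1 and Hspb6 were therefore higher and Cryab, Hspb2 and Hspb7 lower in DDR2-plus.

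Of 9 TRiC chaperonin subunits, which fold actin and tubulin, 2 rose, Cct6a (log2 0.40) and Tcp1 (0.18), and 0 fell by edgeR, at an unadjusted p under 0.05 and by DESeq2 and limma-voom alike. Tcp1 had an edgeR adjusted p of 0.0452 and lost its call without any of DDR2-plus libraries 1 to 4 or PSC libraries 1, 3, 4 and 5, and 7 of the 9 passed as higher with library size alone. Of 6 prefoldin subunits, which hand actin and tubulin to TRiC, Vbp1 rose (0.59) and Pfdn6 (-0.60) and Pfdn5 (-0.35) fell, the call of Pfdn5 being lost with library size alone. Among 15 other mitochondrial chaperones and proteases 0 rose and 4 fell; 1 was higher at an unadjusted p under 0.05, and DESeq2 and limma-voom called 0 as higher. The 4 were Dnajc19 (-0.60), Hscb (-0.58, named after its values were seen), Htra2 (-0.41) and Spg7 (-0.28), none of which passed with library size alone. Of the Htra2 exon bases 43.7% overlap other genes. Hscb also lost its call without DDR2-plus library 4 or 5 or PSC library 1, and Spg7 without DDR2-plus library 2 or PSC library 4. The chaperonin genes Hspd1 and Hspe1, at 0.12 and 0.09, lay above that list's median of -0.05.

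**Figure D5:**
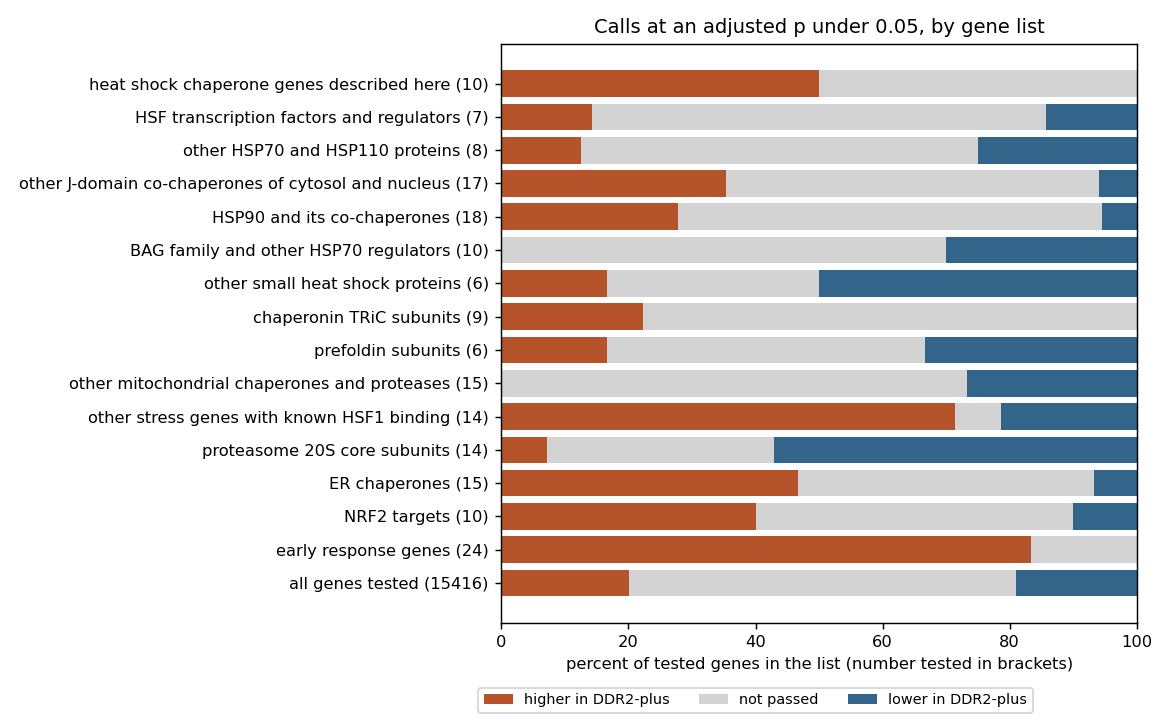
Percent of the tested genes of each list (number tested in brackets) that passed edgeR's test as higher in DDR2-plus, as lower, or not at all, with all 15416 tested genes at the bottom. The early response genes (20 of 24 higher) and the other stress genes with known HSF1 binding (10 of 14 higher) have the widest higher bars, while 8 of 14 proteasome core subunits are lower.

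Other stress genes known to bind HSF1 at their promoters rose in 10 of 14 cases and fell in 3, with a median log2 fold change of 0.58. Slc5a3, an inositol transporter, rose (log2 1.19), as did Gadd45b, a growth arrest gene that is also in the early response list (1.05). Mt1, a metallothionein, had 106 ± 4.02 CPM in DDR2-plus, against 56.3 ± 7.21 CPM in PSC (log2 0.91, SE 0.09, edgeR adjusted p = 5.8e-06). Hmox1, heme oxygenase, rose (0.85). The 3 that fell, named after their values were seen, were Rgs2 (log2 -0.79), Serpinh1 (-0.37) and the ubiquitin gene Ubb (-0.29). Serpinh1 encodes HSP47, the collagen chaperone of the endoplasmic reticulum, and averaged 3967 ± 174 CPM in DDR2-plus, against 5130 ± 208 CPM in PSC; neither it nor Ubb passed with library size alone. In the list PSC library 3 was the lowest PSC library in 7 of 14 genes and DDR2-plus library 3 in 8 of 14.

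Early response genes rose in 20 of 24 cases, with a median log2 fold change of 1.04, and 0 fell by edgeR, at an unadjusted p under 0.05 or by DESeq2 and limma-voom. Btg2, an antiproliferative gene, had 2204 ± 292 CPM in DDR2-plus, against 548 ± 137 CPM in PSC (log2 2.01, SE 0.17, edgeR adjusted p = 2.5e-06). Zfp36, which encodes an mRNA decay factor, had 1554 ± 115 CPM in DDR2-plus, against 553 ± 91.9 CPM in PSC (log2 1.49, SE 0.11, edgeR adjusted p = 1.2e-06). The transcription factor genes Egr2 and Nr4a1 rose by 1.5 and 1.49 on the log2 scale. The early response genes thus moved in the direction of Dnajb1. The negative fold changes of Hspa1a and Hspa1b did not pass in the fit without covariates on all libraries. The part of the early response genes in the chaperone results was not tested.

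Among the NRF2 targets, the genes of the oxidative stress response, 4 of 10 rose and 1 fell. Nqo1, a quinone reductase, had 50.5 ± 9.84 CPM in DDR2-plus, against 11.9 ± 3.19 CPM in PSC (log2 2.09, SE 0.20, edgeR adjusted p = 5.2e-06). Srxn1 (1.10), Txnrd1 (0.85) and Hmox1, which is in both lists, rose too, and Prdx1, named after its values were seen, fell (-0.28). Prdx1 did not pass with library size alone. Of 15 chaperones of the endoplasmic reticulum 7 rose and 1 fell: Hspa5, the BiP gene, had 1292 ± 131 CPM in DDR2-plus, against 922 ± 87.8 CPM in PSC (log2 0.49, SE 0.09, edgeR adjusted p = 0.000873). Sdf2l1 (0.59), Pdia6 (0.57) and Dnajb9 (0.52) rose with it, and Manf (-0.23), named after its values were seen, fell, though with library size alone it was at 0.04. Among 14 subunits of the proteasome 20S core 8 fell and 1 rose; Psma7 (-0.40), Psmb5 (-0.35), Psma4 (-0.33) and Psmb3 (-0.32) fell and Psma1 (0.29), named after its values were seen, rose. None of the 14 passed as lower with library size alone.

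A profile averaged over 6 members, from the centred log2 CPM of Hspa1a, Hspa1b, Dnajb1, Hspb1, Hsph1 and Bag3 over the 10 libraries, was compared with 8866 other genes. The nearest were Sipa1l1, at a root mean square difference of 0.14 on the log2 scale, Snx27 (0.18), Eri1 (0.18), Snrnp200 (0.18) and Bcl2l11 (0.19). Sipa1l1 did not pass between the groups (log2 0.35, edgeR adjusted p = 0.105), and the other 4 rose by 0.50 to 0.70. The averaged profile holds the difference between the groups, so these fold changes follow in part from the choice and are no separate result. Hspa8 (0.19) and Hsp90aa1 (0.23), members that were not part of the average, lay nearer to it than any of the 6 that made it. Among those 6, Hsph1 lay nearest, at 0.24, with Hspb1 at 0.27, Bag3 at 0.28, Hspa1a at 0.51, Hspa1b at 0.53 and Dnajb1 at 0.89.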

How the data were processed

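The authors deposited raw read counts per gene symbol for 10 libraries, per the file headers. The build was mm10 and DESeq was used, per the submitters' processing notes; no source used here names an aligner, a counter or an annotation. Per the labels' protocols, cDNA was amplified from 1 ng of RNA and made into libraries with a transposase kit that does not mark strand, with no molecular identifiers, so the spread between libraries includes amplification.

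Genes kept by edgeR's filterByExpr were scaled by TMM and fitted with edgeR 4.0.16 (glmQLFit and glmQLFTest, R 4.3.3) as DDR2-plus over PSC without covariates. P-values were adjusted by Benjamini-Hochberg over all 15416 genes tested, with a threshold of 0.05. Ratios of counts in a library (0.5 added) were compared by exact permutation (scipy 1.17.1). The procedure was tested on simulated data with 200 changed genes, far fewer than passed in these data. It recovered 25.4% of the 1.5-fold, 50.7% of the 2-fold and 75.8% of the 4-fold changes. Of its 108 calls 6.48% were false. With so few changed genes the adjusted p is stricter than in data where 39.1% of genes pass, and the simulation covers genes of all levels. These shares therefore do not give the rate at which changes of the members were missed, which was not measured. Small changes of members could still be missed. DESeq2 1.42.0, limma-voom (limma 3.58.1), other scaling, filters, a replicate block and each library left out were alternatives. Gene models, exon overlap and shared 50-base windows came from GENCODE on mm10, and promoter windows from RefSeq on GRCm38.p6.

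Named were all members, from each list up to 4 genes past the threshold, those with the largest absolute fold change among genes whose higher group averaged 10 CPM or more, Hsp90ab1, Hsf1 and Hsf2, and the 5 genes with the nearest profile; other genes that did not pass are given by counts. Where 5 or fewer genes of a list passed in 1 direction, the rest of them were added by name after their values were seen. The members and lists were chosen with earlier results of these data known.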

Additional observations from a re-analysis of the deposited data

Results flagged for a closer look

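In 13 of 154 groups of 5 values checked, counting each gene or ratio named once per group of libraries, 1 library stood far from the other 4 by Dixon's criterion (critical value 0.71), which chance alone gives in about 1 in 20 groups. Library 3 was the one apart in 9 of the 13, and it was the low one in 8 of those 9. Snx27 and Eri1, named below, were picked for profiles near an average of members that are lowest in PSC library 3. Many of the genes also move together and were picked from these data. The rate of 1 in 20 is therefore no test of these counts. Bag3 stood at 77.8 CPM in DDR2-plus 3, against 93.5 to 99.3 CPM in the other DDR2-plus libraries. The ratio of Hsp90aa1 to Hsp90ab1 was 0.128 in PSC 3 and 0.171 to 0.180 in the other PSC libraries. Among early response genes, Btg2 was at 1696 CPM in DDR2-plus 3 (2220 to 2386 CPM in the others), Egr2 at 82.3 CPM in PSC 3 (145 to 169.5 CPM) and Nr4a1 at 303 CPM in PSC 3 (587 to 689 CPM). Hspa5 stood at 770 CPM in PSC 3 (935 to 990.1 CPM), Snx27 at 20.7 CPM (29.9 to 33.0 CPM) and Eri1 at 9.75 CPM (17.6 to 20.6 CPM) in the same library. Hspb2 was the high exception, at 3.42 CPM in DDR2-plus 3 (1.54 to 1.90 CPM). In other libraries, Unc45a was at 57.9 CPM in DDR2-plus 5 (44.8 to 47.5 CPM), Hspa2 at 44.4 CPM in PSC 5 (30.7 to 34.6 CPM), Dnajc9 at 38.0 CPM in PSC 1 (30.2 to 31.4 CPM) and Hspb6 at 12.7 CPM in PSC 1 (8.66 to 9.69 CPM).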

How the results depend on the processing

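Dnajb1, Hspa8, Hsp90aa1, Hspb1 and Bag3 passed as higher in each of the 20 other settings, with a highest edgeR, DESeq2 or limma-voom adjusted p of 0.00874. With library size alone the members higher were 7, and all genes higher and lower 5421 and 1538; the lists then gave, as higher, HSP70 and HSP110 5, J-domain 12, HSP90 15, BAG 3, small heat shock 2, TRiC 7, mitochondrial 5, proteasome 2 and endoplasmic reticulum 13, and as lower, HSF 0, HSP70 and HSP110 1, J-domain 0, BAG 1, prefoldin 1, mitochondrial 0, HSF1-bound 1, proteasome 0, endoplasmic reticulum 0 and NRF2 0. In that setting Hsbp1 (0.0031), Bag1 (0.0212), Hsf1 (0.0605), Hsf2 (0.0588) and Manf (0.0405) changed sign. With library 3 out of both groups, chosen after seeing the data, members lower were 2, HSP70 and HSP110 higher 2, J-domain lower 0, HSP90 higher 2, TRiC higher 1, mitochondrial lower 1 and proteasome higher 0, and Hsp90ab1 was at -0.0039. DESeq2 gave HSP70 and HSP110 higher 2, and no filter and leaving out Col1a1 and Col1a2 each gave TRiC higher 1. With 1 library left out, members lower were 0 to 2, HSP70 and HSP110 higher 1 to 2, HSP90 higher 2 to 5 and lower 1 to 2, BAG higher 0 to 1, small heat shock higher 1 to 2, TRiC higher 1 to 3 and mitochondrial higher 0 to 1. The log2 difference of the inducible HSP70 ratio was then -1.17 to -0.76 (exact permutation p 0.0159 to 0.0794), of Hspd1 to Hspe1 -0.0402 to 0.0914, and Hsp90ab1 lay between -0.0045 and 0.0512. The causes of these changes were not tested. Deviations of libraries with the same number correlated at -0.01, 0.06, 0.18, 0.01 and 0.07 over 9291 genes. Those with different numbers ran from -0.13 (DDR2-plus 3 with PSC 4) to 0.16 (DDR2-plus 4 with PSC 2). The value of 0.18, of DDR2-plus 3 with PSC 3, was the highest of all. Such weak correlations cannot tell whether a number marks a shared animal, so pairing stays undecided. With the replicate block, members lower were 1 (Hspa1b, log2 -0.46, edgeR adjusted p = 0.0222) and HSP70 and HSP110 higher 2. The pair counted as 1 gene was then at -0.42 (edgeR adjusted p = 0.0455). The ratios kept -0.90 and 0.55 with an exact p of 0.0625, the smallest that 5 pairs can give. The run of 3 units in the promoters was in 3 members against 7 for the pair of units. Of 677 values of the counts and ratios 606 held, of 200 values of members 193 held and 7 newly passed, and of 1280 values of other named genes 1204 held. The lowest count of a member in any library was 675 reads; reads of amplified cDNA without molecular identifiers are not independent molecules, so this bears on counting error only.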
